A study of Homo sapiens with 6 samples.

Results

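Lipid-associated macrophage genes are a set of 9 mouse genes that macrophages are known to turn on together when they take up and handle lipid: Apoe, Trem2, Tyrobp, Fabp5, Spp1, Lgals3, Cd9, Abca1 and Abcg1. The members were taken by their Ensembl gene IDs from a table of 77134 rows, and all 9 had a row. RNA came from subcutaneous xenografts of A549, a human lung adenocarcinoma line, in BALB/c nude mice, 1 library per tumour. The 3 vector control tumours grew from A549 cells stably infected with the lentivirus pLV-CMV-EGFP-Neo, and the 3 HIF1A-AS3 overexpression tumours from cells infected with pLV-CMV-HIF1A-AS3-EGFP-Neo. Both groups thus carried EGFP and the neomycin resistance gene, and in the second the CMV promoter also drove HIF1A-AS3, an RNA antisense to the human HIF1A gene. The labels do not give the age or sex of the mice or the time of harvest. Nude mice lack a thymus and mature T cells, and keep macrophages.

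In macrophages of fat tissue, atherosclerotic plaques and tumours, lipid and debris of dead cells are sensed at the surface by the receptor TREM2, which has no signalling tail and passes its signal through the adaptor DAP12, the product of Tyrobp. Apolipoprotein E, which TREM2 can bind, carries lipid out of the cell, and the ABC transporters ABCA1 and ABCG1 load cholesterol onto lipoprotein particles. Fatty acids inside the cell are bound by FABP5, while osteopontin (Spp1), galectin-3 (Lgals3) and the tetraspanin CD9 are further products by which this macrophage state is recognised.

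Every row is a mouse gene, so its counts stand for host RNA plus any human tumour RNA similar enough to be counted on it. The part that human RNA had in these values was not tested. Carcinoma cells also make Lgals3, Cd9 and Fabp5, and the human share was not measured for any member, Spp1 included. HIF1A-AS3 itself is human and was not analysed here, so the group labels could not be checked against it. In such bulk tumours, fewer cells of a type and less RNA per cell cannot be told apart. Whether each tumour had its own mouse is not stated in the labels. Tumours that shared a mouse would not be independent, while the tests treat all 6 libraries as independent. The p-values set the difference between groups against the spread between libraries within groups, which may be in part technical.

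Libraries held 4167784 to 4769157 estimated counts, and 12637 genes passed the filter on low counts. Levels are given as CPM, counts set to a common total over these genes, and scaled between libraries by TMM, which corrects for differences in composition. Overexpression replicate 1 stood apart from the rest. It had the fewest genes with a count, 17356 against 18753 to 19010, the largest share of counts in its 20 most abundant genes, 15.7% against 10.98% to 12.8%, and the lowest mean correlation with the other libraries, 0.906 against 0.922 to 0.939 (Pearson's r across genes, on log2 CPM). Its TMM factor was 0.742, against 1.02 to 1.10 in the others, so scaling raised its CPM relative to theirs. Fold changes and counts that rest on it are therefore given with and without it, and intervals with it only.

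None of the 8 members that could be tested passed the threshold between overexpression and control tumours (edgeR quasi-likelihood test, Benjamini-Hochberg adjusted p below 0.05 over all genes tested). Across all genes 0.0158% passed, or 2 of 12637, neither of them a member. At an unadjusted p below 0.05 there were also 0 members, against 6.29% of all genes, and DESeq2 on the same genes gave 0 members at its adjusted threshold (0.222% of all genes) and 1, Spp1, at an unadjusted p below 0.05 (6.89% of all genes). The fitted log2 fold change was positive for 6 members and negative for 2, with a median of 0.29, where 50.6% of all genes were positive with a median of 0.01. Without overexpression replicate 1, 4 of 8 were positive with a median of 0.02. With library totals in place of TMM the median over all genes shifted to -0.21; 4 of 8 members were then positive with a median of -0.001, which lay 0.21 above that of all genes, against 0.29 above it with TMM.

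**Figure D1:**
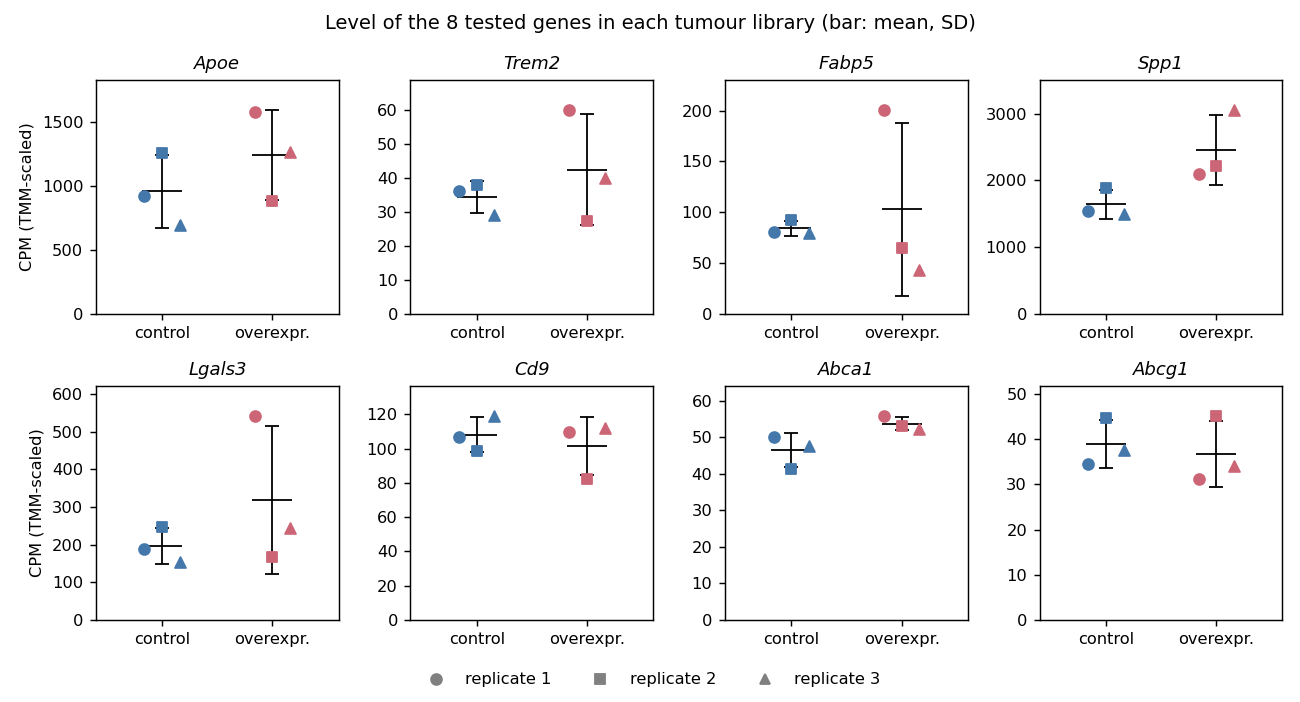
CPM (linear axis from 0, TMM-scaled) of each of the 8 tested genes in the 3 control libraries (blue) and the 3 overexpression libraries (red), with marker shape for the replicate number, a black line for the mean and bars for 1 SD. Overexpression replicate 1 (red circle) is the highest library for Apoe, Trem2, Fabp5, Lgals3 and Abca1. The groups stand apart for Spp1 and Abca1 only, as they do in 13.2% of all genes. With library totals in place of TMM they stand apart for 0 members.

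The signalling pair of the set could be read on the receptor side only. Trem2 (ENSMUSG00000023992.15), the lipid-sensing receptor, was at 167, 168 and 135 estimated counts in control replicates 1, 2 and 3 and at 211, 130 and 174 in overexpression replicates 1, 2 and 3. Scaled to depth these were 36.1, 38.0 and 29.0 CPM in controls and 59.9, 27.4 and 40.0 CPM in overexpression tumours. The overexpression group held both the highest library, replicate 1, and the lowest, replicate 2, so the controls lay inside its range. Group means were 34.4 ± 4.74 and 42.4 ± 16.4 CPM (SD, n = 3 each), and the log2 fold change was 0.30 (SE 0.29; edgeR adjusted p = 0.80). The log2 fold change was -0.06 without overexpression replicate 1, 0.54 without overexpression replicate 2 and 0.19 without control replicate 3.

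Tyrobp (ENSMUSG00000030579.11), whose adaptor protein is found throughout the myeloid lineage and in NK cells, was listed at 0 estimated counts in all 6 libraries and was not tested. It was 1 of 51637 rows listed at 0 throughout, while Trem2 had 130 to 211 estimated counts in the same libraries. An exact 0 in every library can be a failed estimate, for example where reads are assigned to another row that shares the sequence, and whether it is one was not tested. No level of Tyrobp is therefore read from it. If the 0 were a true count it would allow up to 3 counts, or 0.632 to 0.852 CPM in these libraries, for counting error only. The set is named after a macrophage state, and Tyrobp and Trem2 are its members most tied to myeloid cells. With Tyrobp unread and the other macrophage markers not analysed here, since no table used here pairs their mouse IDs with symbols, the name could not be checked beyond the presence of Trem2, and nothing is said on which cells held the RNA.

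Apoe (ENSMUSG00000002985.17), the lipid-carrying ligand of TREM2, had 920, 1262 and 697 CPM in control replicates 1 to 3 and 1583, 880 and 1269 CPM in overexpression replicates 1 to 3. Overexpression replicate 1 was highest and control replicate 3 lowest, and overexpression replicate 2 lay below 2 of the 3 controls. The group means were 960 ± 285 and 1244 ± 352 CPM (SD, n = 3 each), 1.30-fold higher in overexpression tumours with a 95% interval of 0.775-fold to 2.17-fold (edgeR adjusted p = 0.78). Its log2 fold change of 0.37 depended on single libraries: it was 0.13 without overexpression replicate 1, 0.19 without control replicate 3, 0.57 without overexpression replicate 2 and 0.62 without control replicate 2, and with library totals only it was 0.11. The spread within each group, 29.7% and 28.3% of the mean, was as large as the difference between the means. Counting error could give only 1.51% and 1.40%, with 3243 to 5581 estimated counts of Apoe per library.

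Spp1 (ENSMUSG00000029304.15), which encodes the secreted phosphoprotein osteopontin, had the smallest p of the 8 tested members. Its levels were 1545, 1891 and 1487 CPM in control replicates 1 to 3 and 2090, 2211 and 3050 CPM in overexpression replicates 1 to 3. All 3 overexpression libraries lay above all 3 controls, and replicate 3 was the highest. The means were 1641 ± 218 and 2451 ± 523 CPM (SD, n = 3 each), a 1.49-fold difference with a 95% interval of 0.978-fold to 2.28-fold. Spp1 did not pass, at an unadjusted p of 0.060 and an adjusted p of 0.70 (edgeR). With DESeq2 the unadjusted p was 0.011 and the adjusted p 0.60.

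Spp1 did not draw its difference from the library that stood apart. Of single libraries left out, overexpression replicate 3, its highest, lowered the log2 fold change of Spp1 most, to 0.39 (SE 0.23). Without overexpression replicate 1 its log2 fold change was 0.65 (SE 0.19), against 0.58 (SE 0.26) with all libraries, and over the 14 alternatives it ranged from 0.38 to 0.70 with adjusted p values of 0.26 to 1.00. The gap between the groups did depend on the scaling: with library totals only, overexpression replicate 1 had the lowest Spp1 of all libraries, 1551 CPM against 1633 to 2017 CPM in controls.

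The groups did not overlap in 2 of the 8 tested members, Spp1 and Abca1, against 13.2% of all genes. Both were higher in overexpression tumours, a direction found without overlap in 6.79% of all genes. Without overexpression replicate 1 there were 3, against 18.9% of all genes. Spp1 and Abca1 were then higher in overexpression tumours, and Fabp5 was lower. With library totals only there were 0, against 14.9%.

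Lgals3 (ENSMUSG00000050335.18) encodes galectin-3, a lectin that binds galactose-containing sugars and is abundant in phagocytes. It had 189, 247 and 153 CPM in control replicates 1 to 3 and 540, 168 and 244 CPM in overexpression replicates 1 to 3. A single library, overexpression replicate 1, lay far above the rest, and the other two of its group fell within the range of the controls. The means were 196 ± 47.2 and 318 ± 197 CPM (SD, n = 3 each), with the largest log2 fold change among the 8 tested members, 0.69 (SE 0.42; edgeR adjusted p = 0.72). Without overexpression replicate 1 the log2 fold change was 0.04, and without overexpression replicate 2 it was 1.00 with an adjusted p of 0.19, the lowest of its 14 alternatives. The estimates were whole numbers to within 0.005 in 6 of 6 libraries.

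Fabp5 (ENSMUSG00000027533.11), the fatty acid binding protein, varied most between tumours. It was even among controls, at 80.4, 92.1 and 79.5 CPM in replicates 1 to 3, and uneven among overexpression tumours, at 200.5, 64.9 and 43.2 CPM. Overexpression replicate 1 was above every control, and replicates 2 and 3 were below every control. The highest and lowest library differed 4.64-fold, while the controls differed 1.16-fold. The SD was 8.33% of the mean in controls and 82.8% in overexpression tumours, against a counting error of about 5.11% and 5.00%.

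The mean of 3 tumours therefore said little for Fabp5. Its log2 fold change was 0.29 (SE 0.52; edgeR adjusted p = 0.89), with a 95% interval of -0.92 to 1.49. Without overexpression replicate 1 it turned to -0.67 (SE 0.21, unadjusted p 0.018, adjusted p 1.00 in edgeR), and without replicate 3 it was 0.66. It was also negative with library totals only (-0.08, above the median of -0.21 over all genes), limma-voom (-0.03) and a block by replicate number (-0.03). Fabp5 is known to have processed pseudogene copies in the mouse genome, and how its reads were divided among copies was not tested. Its estimates were whole in 0 of 6 libraries, but so were those of Apoe, Trem2 and Spp1, so this does not set Fabp5 apart.

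Cd9 (ENSMUSG00000030342.9), a tetraspanin that organises proteins in the membrane and is made by many cell types, was among the steadier members. It had 107, 98.8 and 119 CPM in control replicates 1 to 3 and 109.9, 82.0 and 112 CPM in overexpression replicates 1 to 3. The groups overlapped, with overexpression replicate 2 the lowest library and control replicate 3 the highest. Means were 108.2 ± 10.0 and 101.4 ± 16.8 CPM (SD, n = 3 each), and the 95% interval of the fold change ran from 0.696-fold to 1.26-fold (adjusted p of 0.90 in edgeR). With TMM, overexpression replicate 1, highest for 5 members, was close to the controls for Cd9. With library totals only it had the lowest Cd9 of all libraries, 81.6 CPM against 105 to 130 CPM in controls. The log2 fold change of Cd9 was then -0.33, where the median over all genes was -0.21.

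Of the cholesterol transporters, Abca1 had the smallest spread of the 8 tested members, with a 1.35-fold range over the 6 libraries, and Abcg1 ranged 1.44-fold. Abca1 (ENSMUSG00000015243.5), which moves cholesterol and phospholipid onto lipid-poor apolipoproteins, had 50.2, 41.2 and 47.7 CPM in control replicates 1 to 3 and 55.7, 53.1 and 52.2 CPM in overexpression replicates 1 to 3. The 3 overexpression libraries lay just above the 3 controls and close together: their SD was 3.34% of the mean, below the 6.67% that counting error alone would give, so it tells little of the spread between tumours. The log2 fold change was 0.21 (SE 0.16; edgeR unadjusted p = 0.22, adjusted p = 0.76). With library totals only it was -0.02, a shift like that of the median over all genes, which went to -0.21. On that scale the groups overlapped, with overexpression replicate 1 the lowest library at 41.3 CPM. With TMM, the log2 fold change was 0.14 without control replicate 2 and 0.15 without overexpression replicate 1.

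Abcg1 (ENSMUSG00000024030.8), which exports cholesterol to mature lipoprotein particles, had 34.6, 44.8 and 37.6 CPM in control replicates 1 to 3 and 31.2, 45.1 and 34.0 CPM in overexpression replicates 1 to 3. In each group replicate 2 was the highest, and the groups overlapped over nearly their whole range. Its log2 fold change was -0.08 (SE 0.21, edgeR adjusted p = 0.93). It was 0.03 without control replicate 2 and -0.009 without overexpression replicate 1. The ratio of Abca1 to Abcg1 counts, which needs no scaling between libraries, was 1.45, 0.919 and 1.27 in control replicates 1 to 3 and 1.78, 1.18 and 1.53 in overexpression replicates 1 to 3. These ratios overlapped between the groups.

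**Figure D2:**
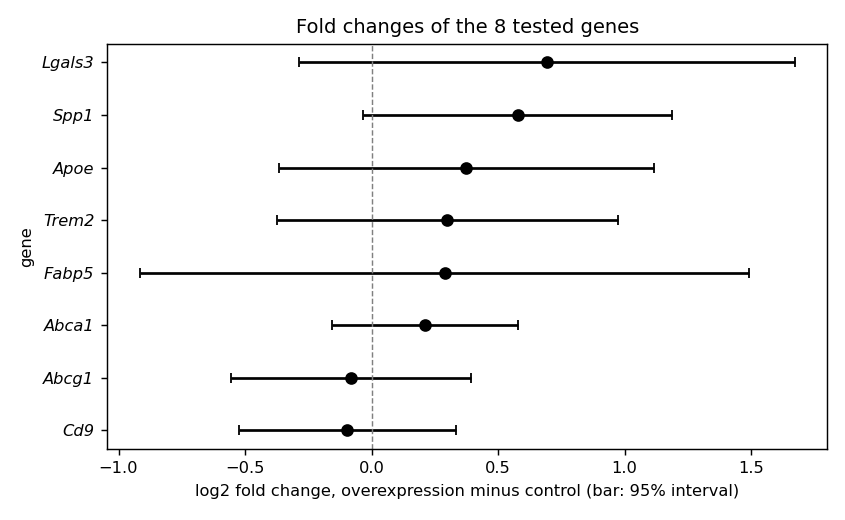
Fitted log2 fold change (overexpression minus control, edgeR) of each of the 8 tested genes, with 95% intervals as bars and genes ordered by fold change. All 8 intervals include 0; that of Fabp5 is the widest (-0.92 to 1.49) and that of Abca1 the narrowest (-0.16 to 0.58).

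The intervals give the range of differences that these 6 libraries leave possible. For Abca1 the upper bound was a 1.49-fold higher level in overexpression tumours, for Cd9 1.26-fold and for Abcg1 1.31-fold, and the lower bounds were 0.896-fold, 0.696-fold and 0.680-fold. For Lgals3 and Fabp5 the upper bounds were 3.19-fold and 2.81-fold, so differences up to that size are not excluded by these intervals. These are intervals for 1 gene at a time, with no adjustment for how many were tested.

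The tumours of the overexpression group differed from each other more than the controls did in most members. The SD of log2 CPM was larger among overexpression libraries for 6 of the 8 tested members, Trem2, Fabp5, Spp1, Lgals3, Cd9 and Abcg1, and not for Apoe and Abca1. Over all genes the same was true of 76.4%, so the members' share was close to that of genes at large. Without overexpression replicate 1 the same 6 members had the larger SD, against 62.2% of all genes. The overexpression SD then came from 1 library fewer than the control SD, so the 2 settings are not alike. For Fabp5 the SDs were 0.12 in controls and 1.14 in overexpression tumours, and for Lgals3 0.34 and 0.86, where the medians over all genes were 0.20 and 0.37.

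Overexpression replicate 1 was the highest of the 6 libraries for 5 of the 8 tested members, and over all genes it was the highest for 26.7%. With TMM it was the lowest for 1 member, and for 28.5% of all genes. With library totals only it was the highest for 3 members (Trem2, Fabp5 and Lgals3), against 9.13% of all genes. On that scale it was the lowest for 4 (Spp1, Cd9, Abca1 and Abcg1). The share of all genes lowest in it on that scale was not computed, so the 4 have no background to be read against. High Fabp5 and Lgals3 in this tumour thus held under both scalings, as did Trem2 by a small margin (44.5 CPM against 41.0 in overexpression replicate 3 with library totals only), and high Apoe and Abca1 did not. The genes of the set did not move as 1 block in it: with TMM, Lgals3 stood at 540 CPM against a control mean of 196, while Cd9 stood at 109.9 against 108.2 and Abcg1 at 31.2 against 39.0.

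**Figure D3:**
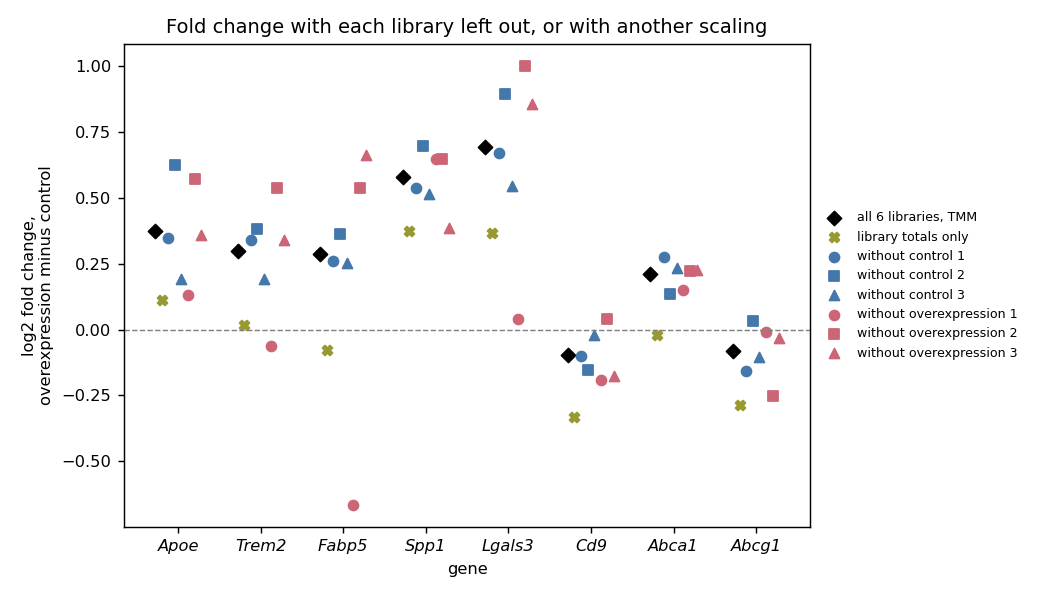
Log2 fold change (overexpression minus control) of each of the 8 tested genes in edgeR with all 6 libraries (black diamond), with library totals in place of TMM (olive cross) and with each library left out in turn (blue for controls, red for overexpression, marker shape for the replicate number). Lgals3 goes from 0.69 to 0.04 and Fabp5 from 0.29 to -0.67 without overexpression replicate 1, while Spp1 stays at or above 0.38 in every setting drawn.

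The highest correlations between members were among Trem2, Apoe and Lgals3, and none passed after adjustment over the 28 pairs. Over the 6 libraries, log2 CPM of Trem2 and Lgals3 had a Pearson r of 0.969 (exact permutation p = 0.0056, adjusted p = 0.12 over the 28 pairs of members) and a Spearman rho of 0.886 (exact permutation p = 0.033, adjusted p = 0.31). Apoe and Lgals3 had an r of 0.905 (exact permutation p = 0.0083, adjusted p = 0.12) and a rho of 0.943 (exact permutation p = 0.017, adjusted p = 0.23). Apoe and Trem2 had an r of 0.888 (exact permutation p = 0.017, adjusted p = 0.16) and a rho of 0.943 (exact permutation p = 0.017, adjusted p = 0.23). These were the 3 pairs with an unadjusted p of r below 0.05. The values that follow describe them as the most alike pairs of these libraries, with no further test.

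The order of the tumours was nearly the same for the 3 genes: overexpression replicate 1 was highest, control replicate 2 and overexpression replicate 3 followed, and control replicate 3 and overexpression replicate 2 were among the lowest 3. Leaving out the 2 libraries farthest from the median of the first gene gave an r of 0.942 for Trem2 and Lgals3, 0.986 for Apoe and Lgals3 and 0.795 for Apoe and Trem2. With library totals only the r over 6 libraries was 0.848, 0.726 and 0.778 for the same pairs. Of all genes tested, 0.491% were at least as alike to Trem2 as Lgals3 was, and 1.65% at least as alike to Lgals3 as Trem2 was. For Apoe and Trem2 the shares were 5.04% (alike to Apoe) and 6.44% (alike to Trem2). For Apoe and Lgals3 they were 3.81% (alike to Apoe) and 7.32% (alike to Lgals3). With each library expressed relative to its group mean, r was 0.974 for Trem2 and Lgals3, 0.880 for Apoe and Lgals3 and 0.880 for Apoe and Trem2.

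Ratios of 2 members within a library need no scaling. The ratio of Apoe to Trem2 counts was 25.5, 33.2 and 24.1 in control replicates 1 to 3 and 26.4, 32.2 and 31.8 in overexpression replicates 1 to 3, a 1.38-fold range. Trem2 CPM alone, which does depend on scaling, spanned 2.19-fold with TMM (27.4 to 59.9 CPM). With library totals only its span was narrower, 28.1 to 44.5 CPM. The ratio of Lgals3 to Trem2 counts was 5.25, 6.49 and 5.29 in controls and 9.01, 6.16 and 6.12 in overexpression tumours, so in overexpression replicate 1 Lgals3 was high also relative to Trem2. Spp1 was less tied to Trem2, with a ratio of 42.9, 49.8 and 51.5 in controls and 34.8, 81.0 and 76.4 in overexpression tumours. The tumour with the most Trem2, overexpression replicate 1, had the least Spp1 per Trem2.

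**Figure D4:**
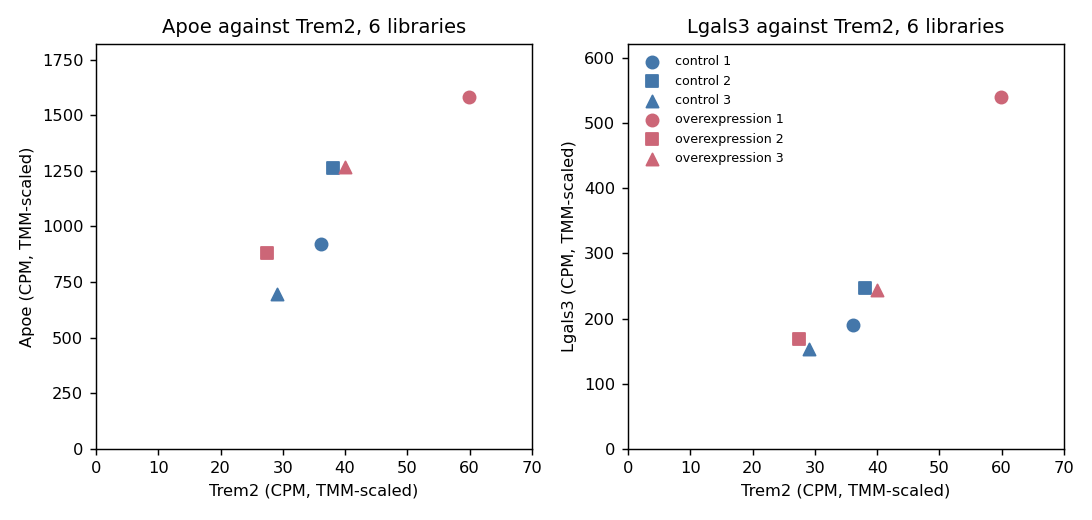
CPM (TMM-scaled, linear axes from 0) of Apoe (left) and Lgals3 (right) against that of Trem2 in the 3 control (blue) and 3 overexpression libraries (red), marker shape for the replicate number. Overexpression replicate 1 is at the upper right, with 59.9 CPM of Trem2, and the other 5 libraries lie at 27.4 to 40.0 CPM of Trem2, with r (log2 CPM) of 0.831 for Apoe and 0.903 for Lgals3 without it.

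The other members had lower correlations with these 3. The member most like Fabp5 was Lgals3 (r = 0.714, exact permutation p = 0.15, adjusted p = 0.63; rho = 0.600, exact permutation p = 0.24, adjusted p = 0.83), with an r of 0.695 without the 2 libraries farthest from the median of Fabp5. Abcg1 went the other way from Trem2 with an r of -0.686 (exact permutation p = 0.14, adjusted p = 0.63) and a rho of -0.829 (exact permutation p = 0.058, adjusted p = 0.41). Without overexpression replicates 1 and 2, the 2 libraries farthest from the median of Trem2, r was -0.03. Leaving them out also narrows the range of Trem2, so this value cannot tell whether the relation rested on them. The transporters Abca1 and Abcg1 had an r of -0.588 (exact permutation p = 0.21, adjusted p = 0.72; rho = -0.429, exact permutation p = 0.42, adjusted p = 0.84), which turned to 0.346 without control replicate 2 and overexpression replicate 1. The member most like Spp1 was Apoe (r = 0.569, exact permutation p = 0.24, adjusted p = 0.73), most like Cd9 was Trem2 (r = 0.379, exact permutation p = 0.43, adjusted p = 0.82) and most like Abca1 was Spp1 (r = 0.376, exact permutation p = 0.45, adjusted p = 0.82), with rho of 0.543, 0.314 and 0.600 (exact permutation p = 0.30, 0.56 and 0.24, adjusted p = 0.83, 0.84 and 0.83). Without the 2 libraries farthest from the median of Apoe, r was 0.484 for Spp1 and Apoe. Leaving out the 2 farthest from the median of Spp1 gave 0.317 for Abca1 and Spp1. For Cd9 and Trem2, r was -0.631 without overexpression replicates 1 and 2, again over a narrower range of Trem2. Abcg1 had no positive r with any member. Of the 28 pairs, 18 had a positive and 10 a negative r.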

How the data were processed

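The authors deposited 1 table of estimated counts per gene, 1 column per tumour, with no scaling per the file header. Its name points to salmon, a transcript quantifier whose version and annotation no label states. The submitters' processing notes name DESeq2, edgeR, featureCounts 2.0.6, HISAT2 2.2.1, Trimmomatic 0.39 and the mouse build mm10, without saying what each was used for. Estimated counts were rounded to whole numbers for the fits, and no column was unmatched (0).

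Libraries were analysed in R 4.3.3 with edgeR 4.0.16: filterByExpr at its defaults, TMM scaling, and the robust quasi-likelihood F-test with group as the only term, fitted over 12637 genes with Benjamini-Hochberg adjustment over all of them (threshold 0.05). Standard errors were derived from the log2 fold change and F, and a prior count of 2 was added for log2 CPM. The fit was tried on simulated counts with larger changes than the members had, so that trial does not bear on differences of the members' size. Correlations used an exact two-sided permutation test over 720 orders of the 6 libraries. Counting error is 100 divided by the square root of the mean count, and intervals and limits cover counting error only where so said. Alternatives were RLE factors, library totals, other filters, DESeq2 1.42.0, limma-voom 3.58.1, fitting without robust, a replicate block and leaving out each library. Library CPM without TMM, ratios, and counts of overlap and of larger SD under other settings were chosen after seeing the data; the fits with library totals were planned.

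The members and lists were chosen with earlier results of these data known. All 9 members are named by rule, and for each of the 8 tested its most alike member. The reference tables used here are human and matched 0 IDs, so the symbol lists of cell type markers and of the TREM2, LXR and cholesterol pathways, and the genes most like Trem2, were not analysed, and no sequence or gene length was used. Levels are therefore compared within a gene only.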

Additional observations from a re-analysis of the deposited data

How the results depend on the processing

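None of the 8 tested members passed the threshold in any of the 14 alternatives (edgeR, DESeq2 or limma-voom); at an unadjusted p below 0.05 there were 1 with DESeq2 (6.89% of all genes), 1 without robust fitting (6.24%), 2 without overexpression replicate 1 (4.69%), 1 without overexpression replicate 2 (20.5%) and 0 in each of the other settings. The number of genes past the threshold over the whole table, 2, was 4 when scaled by totals, 14 when low rows were kept, 0 with at least 10 counts in every library (793 at an unadjusted p below 0.05 in edgeR), 28 with DESeq2, 7 with limma-voom and 0 with a replicate block (414 at an unadjusted p below 0.05); single libraries left out gave a range from 0 to 14, with 0 without control replicate 1 (327 at an unadjusted p below 0.05) or overexpression replicate 3 (947), 1 without overexpression replicate 1 and 14 without overexpression replicate 2. The cause was not tested. Apoe, Spp1 and Lgals3 kept a positive log2 fold change in all 14. The sign turned for Fabp5 with library totals only (-0.076), limma-voom (-0.026), the replicate block (-0.034) and without overexpression replicate 1, for Abca1 with library totals only (-0.021), for Trem2 without overexpression replicate 1, for Abcg1 without control replicate 2 and for Cd9 without overexpression replicate 2. With 1 library left out, log2 fold changes ranged from -0.67 to 0.66 for Fabp5, from -0.061 to 0.54 for Trem2, from -0.25 to 0.033 for Abcg1 and from -0.19 to 0.041 for Cd9. Scaling by totals took the median over all genes from 0.01 to -0.21 (log2), and genes at an unadjusted p below 0.05 went from 452 higher and 343 lower to 114 higher and 585 lower in edgeR. Equal replicate numbers were not taken as pairs. In their deviations from the group means, same-numbered libraries correlated at -0.09, -0.34 and -0.10. Control and overexpression libraries of different numbers correlated at -0.156 to 0.245. Deviations within a group sum to 0, so these values are not independent of each other. No member passed with or without the block, so the calls do not bear on pairing. No 2 libraries were duplicates, the closest pair differing by 3.88 times the sampling variance per gene.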
